A study of Arabidopsis thaliana with 4 samples.

Results

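The xyloglucan endotransglucosylase/hydrolase (XTH) family of *Arabidopsis thaliana* was followed through its 33 genes, *XTH1* to *XTH33*. The genes were taken by locus identifier from 33664 features measured in each library, and all 33 had a row in every file. XTH enzymes work in the cell wall on xyloglucan, the hemicellulose that coats and links cellulose microfibrils. Most of them cut a xyloglucan chain and join the new end to another chain, which lets a wall loosen or be rebuilt as the cell grows, and a few cut the chain with water instead. The genes are known for responding each in its own way to organ, hormone, light, touch and stress, and several lie side by side as tandem copies.

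Poly(A) RNA was sequenced from whole 9-day-old seedlings of the ecotype Col-0, grown on MS plates at 23 ± 2 °C in days of 16 h light and nights of 8 h. The 2 groups were wild type and trm4b-4, a mutant of *TRM4B* (AT2G22400), which encodes a methyltransferase that puts 5-methylcytosine into RNA. The genotype field of the mutants spells the allele tm4b-4 and their titles trm4b-4, and nothing else about the line is given in the labels. Each group had 2 libraries, with 21931590 to 26390263 counted fragments. Nothing in the labels says that replicate libraries were separate cultures, so the p-values cover the spread of these libraries alone, and that spread may be technical. The targeted gene itself was higher in the libraries labelled trm4b-4, at 29.3 ± 0.541 FPKM in wild type and 86.7 ± 0.586 FPKM in trm4b-4 (SD, n = 2 each, log2 change 1.53, limma adjusted p = 2.4e-08), so every direction below refers to the label. Levels are in FPKM, fragment counts scaled to transcript length and to the library total. Changes are differences of log2(FPKM + 1), trm4b-4 minus wild type, with their standard error (SE), and this scale understates changes of genes with low values.

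Most of the XTH genes that could be tested were lower in the libraries labelled trm4b-4. Of the 33 members, 25 reached 1 FPKM in at least 2 libraries and were tested. Among these, 14 fell, 4 rose and 7 did not pass a limma adjusted p of 0.05. The called share was 72.0%, against 34.3% of the 19027 genes tested. The falls made up 56.0% of the tested members against 15.1% of tested genes, and the rises 16.0% against 19.2%. A called fall of at least 1.5-fold on the log2(FPKM + 1) scale was seen in 10 members, against 3.61% of tested genes, and a called rise of that size in 1 member, *XTH31*, against 2.46%. By the ratio of mean FPKM, without the pseudocount, 11 called members were lower by that fold, with *XTH15* added, and 2 higher, with *XTH13* added. No share of all tested genes was computed for this ratio, so the shares above do not apply to these counts. The median log2 change of the tested members was -0.36, or -0.31 without *XTH22*, beside 0.03 over all tested genes. The median was -0.23 without wild type replicate 1, -0.24 with a pseudocount of 5, -0.19 with no filter and -0.59 with a filter of 5 FPKM. In 23 tested members the libraries of the genotypes did not overlap, 17 lower and 6 higher in trm4b-4. The same held for 68.4% of all tested genes, 29.0% lower and 39.4% higher.

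**Figure D1:**
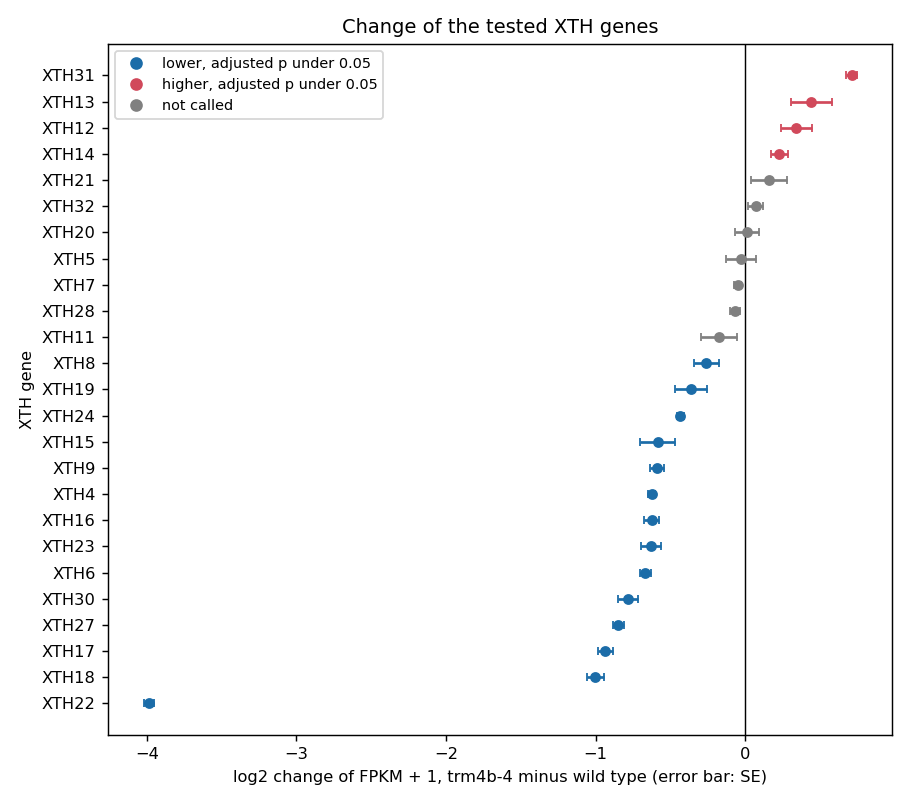
Log2 change of FPKM + 1 (trm4b-4 minus wild type, horizontal axis) of the 25 tested XTH genes, ordered by size, with bars of 1 SE. Blue points fell, red points rose and grey points were not called by limma at an adjusted p under 0.05. XTH22 lies at -3.99, apart from the other falls, which begin at -0.26 for XTH8 and end with XTH18. The sign of XTH20 and XTH5, near 0, turned under some alternatives.

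The 5 members whose upstream sequences are described here were chosen after those sequences and the changes were seen. *XTH17* and *XTH18* are root-expressed genes on chromosomes 1 and 4 that both fell. *XTH13* and *XTH14* are on chromosomes 5 and 4 and were both called higher. *XTH22* had the largest fall. Each sequence below is the 250 bases before the annotated start of the gene, written 5′ to 3′ on the gene's strand and read from the RefSeq TAIR10.1 genome. The windows are chr1:24256804-24257053 (plus strand) for *XTH17* and chr4:14827212-14827461 (minus strand) for *XTH18*. They are chr5:23304096-23304345 (minus strand) for *XTH13*, chr4:13130041-13130290 (plus strand) for *XTH14* and chr5:23308681-23308930 (minus strand) for *XTH22*. In the first 4, capitals mark the bases identical between the partners of a pair in a local alignment. In *XTH22*, capitals mark TTGAC on either strand, the core of the W-box bound by WRKY transcription factors.
XTH17: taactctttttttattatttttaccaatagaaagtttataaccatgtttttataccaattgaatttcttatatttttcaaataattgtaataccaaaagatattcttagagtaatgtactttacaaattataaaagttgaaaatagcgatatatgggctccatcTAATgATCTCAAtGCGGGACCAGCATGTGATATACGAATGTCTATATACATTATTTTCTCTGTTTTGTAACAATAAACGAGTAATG
XTH18: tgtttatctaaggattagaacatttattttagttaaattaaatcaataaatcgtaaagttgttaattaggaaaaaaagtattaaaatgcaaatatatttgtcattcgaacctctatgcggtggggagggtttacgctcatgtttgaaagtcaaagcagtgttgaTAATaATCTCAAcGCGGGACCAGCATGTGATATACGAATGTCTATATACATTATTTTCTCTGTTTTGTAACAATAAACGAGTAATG
XTH13: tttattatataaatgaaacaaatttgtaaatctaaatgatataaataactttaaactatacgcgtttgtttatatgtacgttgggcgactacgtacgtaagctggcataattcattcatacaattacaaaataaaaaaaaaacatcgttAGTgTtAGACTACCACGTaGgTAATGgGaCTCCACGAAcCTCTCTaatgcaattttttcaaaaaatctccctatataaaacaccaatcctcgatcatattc
XTH14: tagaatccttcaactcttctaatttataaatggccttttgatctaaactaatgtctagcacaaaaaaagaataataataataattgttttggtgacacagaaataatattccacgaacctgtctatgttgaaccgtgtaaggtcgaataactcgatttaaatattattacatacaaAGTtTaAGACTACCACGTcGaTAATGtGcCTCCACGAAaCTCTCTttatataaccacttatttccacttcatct
XTH22: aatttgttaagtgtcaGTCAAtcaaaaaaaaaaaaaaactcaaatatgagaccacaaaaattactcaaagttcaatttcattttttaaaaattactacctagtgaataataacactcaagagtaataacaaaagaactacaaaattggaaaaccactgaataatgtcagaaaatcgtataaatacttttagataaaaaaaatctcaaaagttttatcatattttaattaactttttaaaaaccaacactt

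Of 528 pairs of XTH upstream windows, the *XTH17* and *XTH18* pair aligned best. The 86 bases next to the start were aligned in both genes and 84 of them were identical, with an unbroken run of 73 bases. That run was present in 2 of the 27443 upstream windows of all genes, those of *XTH17* and *XTH18* themselves. The *XTH13* and *XTH14* pair came next, with 38 identical bases in 45 aligned positions, from base 101 to 57 before *XTH13* and from base 74 to 30 before *XTH14*. Its longest identical run, the 12 bases agactaccacgt, was present in 2 of 27443 windows, those of *XTH13* and *XTH14*. Both runs were read from the windows of their pair, so these hits were fixed in advance. The alignment score was 82 for the first pair, 31 for the second and 24 for the next pair, *XTH1* with *XTH12*.

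Short motifs known as binding sites or start elements were counted in the same windows on both strands. TTGAC was in 15 of 33 members, against 44.9% of all windows, and in 8 of the 14 members that fell. *XTH22* held it 1 time, at bases 234 to 230 before its start, and *XTH31* held it 3 times. CANNTG, the E-box, was in 21 members against 55.3% of all windows. It was in 12 of the 14 members that fell and in 2 of the 4 that rose. CGCG, the core of the CAMTA site, was in *XTH13*, *XTH18* and *XTH20*, against 10.1% of windows, and the same 3 members held the longer CGCGTT, which contains it (2.59% of windows). CGTGTG, a brassinosteroid response element, was in *XTH2*, *XTH8*, *XTH23* and *XTH25* (5.37% of windows), and TGTCTC, an auxin response element, in *XTH3* and *XTH6* (10.9%). The G-box CACGTG, which is also a CANNTG, and the GCC-box GCCGCC were in 0 members, against 6.49% and 1.87% of windows. TATAAA was in 18 members against 47.3% of windows, among them all 4 that rose and 7 of the 14 that fell.

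*XTH22* (AT5G57560, also called *TCH4*), known for its rapid induction by touch, lies on chromosome 5 at 23307006 to 23308680 on the minus strand. It stood at 220 and 226 FPKM in wild type and at 13.0 and 13.3 FPKM under the trm4b-4 label. Both trm4b-4 libraries were far below both wild-type libraries, and replicates were near each other. The level was 17.0-fold lower (log2 change -3.99, SE 0.03, limma adjusted p = 3.47e-10), the third largest fall among the 19027 tested genes. It ranked 3 of 33 in the family by level in wild type and 14 in trm4b-4. Its share of the summed XTH level went from 13.3% to 1.14%. Its closest family member by coding sequence was *XTH23*, with 79.2% identical bases. *XTH23* (AT4G25810) fell far less, from 11.6 and 11.4 to 7.17 and 6.98 FPKM (log2 change -0.63, SE 0.07, limma adjusted p = 2.0e-04).

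Other genes induced within minutes by touch and stress fell as well. All 15 of a list of 15 fell, where 15.1% of all tested genes fell, and their median log2 change was -1.99 beside 0.03 over all tested genes. The list was chosen with earlier results of these data known, so this count only describes it and is no test. *CBF1*, with 1.08 and 1.16 FPKM in wild type against 0.337 and 0.642 FPKM, passed the filter through wild type alone. It could thus only be called lower. The calmodulin-like touch genes *TCH3* and *TCH2* had log2 changes of -2.58 and -1.69, the calmodulin gene *CAM2* one of -0.36, and *ERF104*, an ethylene response factor gene, one of -2.57. The summed level of the list was 1249 to 1262 FPKM in wild type and 258 to 260 FPKM in trm4b-4. Its part in the fall of *XTH22* was not tested.

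**Figure D2:**
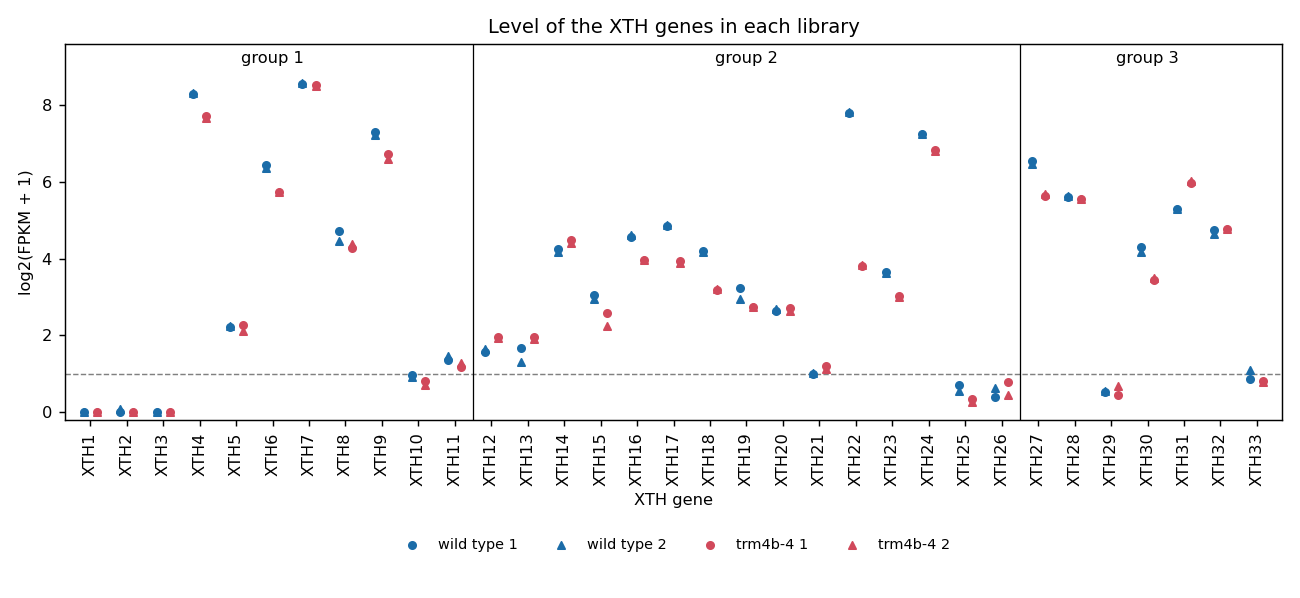
Level of each of the 33 XTH genes as log2(FPKM + 1) in the 4 libraries (vertical axis), with the genes in number order and lines between phylogenetic groups 1, 2 and 3. Blue symbols are wild type, red symbols trm4b-4, circles replicate 1 and triangles replicate 2, and the dashed line is 1 FPKM. XTH22 goes from 220 and 226 to 13.0 and 13.3 FPKM, while XTH7 stays at 359 to 381 FPKM in all 4 libraries.

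The members used most in these seedlings were mainly lower. Of 7 tested members at 50 FPKM or more in wild type, 6 fell, 0 rose and 1 was not called, where 34.5% of all tested genes at that level fell and 30.6% rose. Of 18 members under that level, 8 fell, 4 rose and 6 were not called, where 12.1% of genes fell and 17.4% rose. Calls in either direction were thus more common among highly expressed genes in general, and the members above and below 50 FPKM were not compared by a test. *XTH4* (AT2G06850), known from stems and from cells that lay down secondary walls, stood at 315 and 318 FPKM in wild type and 208 and 201 FPKM in trm4b-4. Its groups were well apart (log2 change -0.62, SE 0.02, limma adjusted p = 7.29e-07). *XTH9* (AT4G03210), known from growing stems and shoot apices, stood at 157 and 148 against 105 and 96.8 FPKM, again without overlap (log2 change -0.59, limma adjusted p = 3.4e-05). *XTH24* (AT4G30270), also known as the meristem-linked gene *MERI5*, stood at 152 in each wild-type library against 114 and 111 FPKM (log2 change -0.43, limma adjusted p = 7.85e-06). *XTH27* (AT2G01850), known from the forming vessels of leaf veins, had the largest fall among the highly expressed members after *XTH22*. It stood at 92.5 and 88.1 against 48.8 and 50.6 FPKM (log2 change -0.85, SE 0.04, limma adjusted p = 1.29e-06). *XTH6* (AT5G65730) stood at 86.1 and 82.1 against 52.5 and 52.8 FPKM (log2 change -0.67, limma adjusted p = 3.4e-06).

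The most abundant member of all, *XTH7* (AT4G37800), was not called. Its libraries read 373 and 381 FPKM in wild type and 369 and 359 FPKM in trm4b-4, so that the groups did not overlap but lay close together (log2 change -0.05, SE 0.02, limma adjusted p = 0.13). After median-of-ratios rescaling it was called, with a change of -0.08 (limma adjusted p = 0.0258), where 33.1% of tested genes were called. It gave 22.4% of the summed XTH level in wild type and 31.4% in trm4b-4. *XTH6*, its closest relative by coding sequence (71.8% identical), was among the members that fell.

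The sum over all 33 members was 1685 and 1673 FPKM in wild type and 1171 and 1145 FPKM in trm4b-4. The means were 1679 ± 8.30 and 1158 ± 18.5 FPKM (SD, n = 2 each), a ratio of 0.690. The 2 groups did not overlap, and the exact two-sided permutation p was 0.333, the smallest that 2 libraries against 2 allow. The sum fell short of wild type by 521 FPKM, and *XTH22* made up 40.3% of this. Without *XTH22* the ratio was 0.786. The 14 members that fell had a summed ratio of 0.535, the 4 that rose 1.504 and the 7 not called 0.970, groups which were formed by the same values. In whole seedlings, fewer cells of a type and less RNA per cell cannot be told apart.

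**Figure D3:**
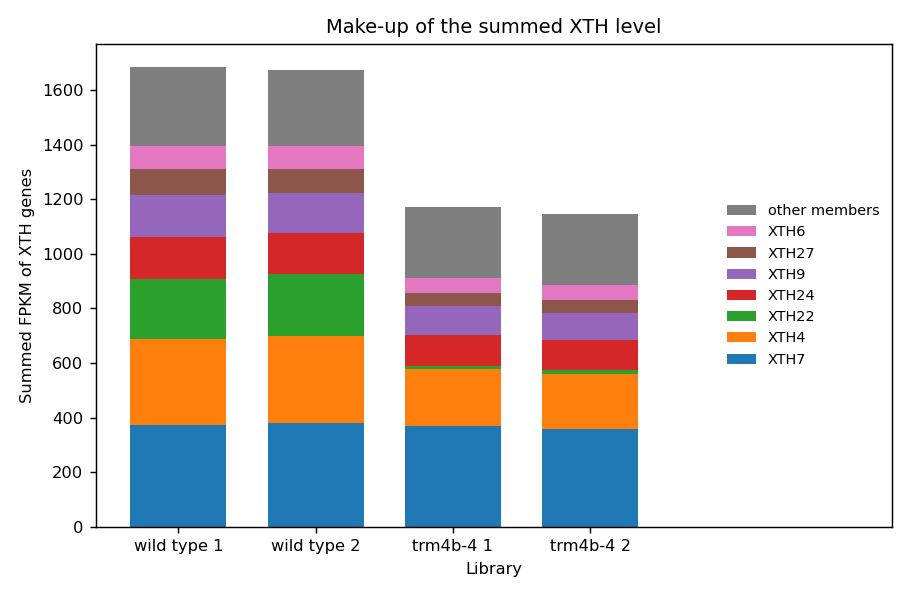
Summed FPKM of the 33 XTH genes in each library (vertical axis), stacked by the 7 genes with the highest wild-type level and the rest. The wild-type bars reach 1685 and 1673 FPKM and the trm4b-4 bars 1171 and 1145 FPKM, and the XTH22 segment shrinks from over 220 to about 13 FPKM while that of XTH7 keeps nearly the same height.

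The family is usually divided by sequence into group 1 (*XTH1* to *XTH11*), group 2 (*XTH12* to *XTH26*) and group 3 (*XTH27* to *XTH33*). Over all tested genes 15.1% fell and 19.2% rose. In group 1, 7 of 11 members were tested, of which 4 fell, 0 rose and 3 were not called. In group 2, 13 of 15 were tested, of which 8 fell, 3 rose and 2 were not called. In group 3, 5 of 7 were tested, of which 2 fell, 1 rose and 2 were not called. The shares of rises in groups 2 and 3 were near that of all genes. The summed level of trm4b-4 over wild type was 0.779 in group 1, 0.428 in group 2 and 0.889 in group 3. The value of group 2 was 0.728 without *XTH22*. Differences between the groups were not tested.

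Among group 2 members of middling level, *XTH17* and *XTH18*, the pair with the shared upstream stretch, fell most. *XTH17* (AT1G65310, chromosome 1 at 24257054 to 24258506) stood at 27.8 and 28.2 FPKM in wild type and 14.5 and 13.9 FPKM in trm4b-4 (log2 change -0.93, SE 0.05, limma adjusted p = 3.83e-06). *XTH18* (AT4G30280) stood at 17.5 and 17.1 against 8.05 and 8.23 FPKM (log2 change -1.001, SE 0.06, limma adjusted p = 7.37e-06). In both genes the libraries of a genotype were alike and the groups far apart, with ratios of 0.506 and 0.471. Their coding sequences were 85.6% identical with a shared stretch of 47 bases. *XTH20* (AT5G48070), also expressed in roots and 85.6% identical to *XTH18*, was not called. It read 5.23 and 5.40 against 5.53 and 5.22 FPKM, with overlapping groups (log2 change 0.01, limma adjusted p = 0.926), and its sign turned after median-of-ratios rescaling (-0.015) and quantile normalization (-0.017). How reads that match more than 1 gene were counted is not given in the sources used here, so the values of such close copies are uncertain.

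*XTH15* and *XTH16*, close relatives that shade and other light signals are known to act on, both fell. *XTH15* (AT4G14130) stood at 7.29 and 6.67 against 4.97 and 3.74 FPKM (log2 change -0.58, SE 0.12, limma adjusted p = 0.00614). *XTH16* (AT3G23730) stood at 22.8 and 23.5 against 14.6 and 14.7 FPKM (log2 change -0.63, SE 0.05, limma adjusted p = 3.96e-05). The groups of both genes were apart, and the trm4b-4 libraries of *XTH15* were less alike than those of *XTH16*. *XTH8* (AT1G11545) in group 1 passed more narrowly, with 25.4 and 21.1 against 18.5 and 19.9 FPKM (log2 change -0.26, SE 0.08, limma adjusted p = 0.0439). It was not called in 5 of 13 alternatives, among them without wild type replicate 1 (-0.13, limma adjusted p = 0.229) and without trm4b-4 replicate 1 (-0.21, limma adjusted p = 0.145).

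In group 3, 1 member rose. *XTH31* (AT3G44990) belongs with *XTH32* to the branch known for cutting xyloglucan rather than rejoining it. It rose, from 38.4 and 38.3 FPKM in wild type to 62.4 and 64.6 FPKM in trm4b-4. Both trm4b-4 libraries were clearly above both wild-type libraries, 1.66-fold the level (log2 change 0.71, SE 0.03, limma adjusted p = 2.68e-06). It moved from rank 9 to rank 5 in the family by level. *XTH32* (AT2G36870), 64.6% identical in coding sequence, was not called, at 25.9 and 24.1 against 26.3 and 26.3 FPKM (log2 change 0.07, SE 0.05, limma adjusted p = 0.297).

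*XTH27* and *XTH28* were 77.4% identical in coding sequence. *XTH28* (AT1G14720), known from the growing filaments of stamens, stood at 48.2 and 48.3 against 46.3 and 45.8 FPKM (log2 change -0.07, SE 0.03, limma adjusted p = 0.167) and was not called, while *XTH27* had a ratio of 0.550. *XTH30* (AT1G32170) fell, from 18.9 and 17.2 to 9.81 and 10.3 FPKM (log2 change -0.78, SE 0.07, limma adjusted p = 5.57e-05). The difference in change between the partners of these pairs was not tested.

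The remaining tested members were low and not called. *XTH5* (AT5G13870) read 3.62 and 3.75 against 3.87 and 3.33 FPKM, with overlapping groups (log2 change -0.03, limma adjusted p = 0.854). *XTH11* (AT3G48580) was at 1.55 and 1.76 against 1.27 and 1.42 FPKM (log2 change -0.18, limma adjusted p = 0.292). *XTH21* (AT2G18800), known from root growth, was at 0.994 and 1.01 against 1.29 and 1.18 FPKM (log2 change 0.16, limma adjusted p = 0.35). The last 2 did not overlap between genotypes, but stood near the lower limit of testing.

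By position, 11 members form 4 tandem clusters, defined as neighbours with at most 2 other annotated genes between them (positions from TAIR10.1). These members held 3 of the 4 rises and 5 of the 14 falls, and 3 members were not tested. Over all tested genes 19.2% rose and 15.1% fell. In 2 of the clusters, members on the same strand were called in opposite directions. The rises there, *XTH12*, *XTH13* and *XTH14*, each lost the call under some of the alternatives. Ratios between neighbours are given per library, on the log2 scale of FPKM and without a test.

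On chromosome 4, *XTH23* and *XTH14* (AT4G25820) lie 363 bases apart on the plus strand, at 13128394 to 13129927 and 13130291 to 13131860. *XTH23* fell, while *XTH14*, known from root hairs, stood at 18.1 and 17.1 FPKM in wild type and rose to 21.5 and 20.1 FPKM (log2 change 0.23, SE 0.06, limma adjusted p = 0.0149). The groups of both genes did not overlap. The log2 ratio of *XTH23* to *XTH14* was -0.64 and -0.58 in wild type and -1.58 and -1.52 in trm4b-4, a shift of -0.94. *XTH14* was not called without wild type replicate 2 (0.19, limma adjusted p = 0.0881), without trm4b-4 replicate 1 (0.18, limma adjusted p = 0.0765) or without a mean-variance trend (limma adjusted p = 0.0533). Of the genes on either side of the pair, AT4G25800 was not called (log2 change 0.12, limma adjusted p = 0.503) and AT4G25830 fell (-0.30, limma adjusted p = 0.0091).

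A cluster on the minus strand of chromosome 4 holds *XTH24*, *XTH18* and *XTH19* (AT4G30290), spaced by 5161 and 1500 bases, between 14819192 and 14830224. All 3 fell. *XTH19*, like *XTH18* a root-expressed gene, stood at 8.51 and 6.68 FPKM in wild type against 5.66 and 5.65 FPKM (log2 change -0.36, SE 0.11, limma adjusted p = 0.0332). Its wild-type libraries differed more from each other than its trm4b-4 libraries did, and its groups did not overlap. *XTH19* was not called in 5 of 13 alternatives, among them without wild type replicate 1 (-0.21, limma adjusted p = 0.19), without trm4b-4 replicate 1 (-0.36, limma adjusted p = 0.0763) and without trm4b-4 replicate 2 (-0.36, limma adjusted p = 0.0783). The log2 ratio of *XTH18* to *XTH19* was 1.04 and 1.36 in wild type and 0.51 and 0.54 in trm4b-4, so *XTH18* was lower relative to its neighbour there. The log2 ratio of *XTH24* to *XTH19* overlapped between genotypes. *XTH18* and *XTH19* were 87.6% identical in coding sequence with a shared stretch of 68 bases, which makes their separate values uncertain. The neighbour AT4G30260 was not called (log2 change -0.02, limma adjusted p = 0.808).

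On chromosome 5, *XTH12* (AT5G57530), *XTH13* (AT5G57540), *XTH25* (AT5G57550) and *XTH22* follow each other on the minus strand from 23300321 to 23308680, spaced by 1097, 686 and 565 bases. AT5G57535, between *XTH12* and *XTH13*, was listed at 0 in every library. *XTH12* stood at 1.96 and 2.14 FPKM in wild type and 2.92 and 2.82 FPKM in trm4b-4 (log2 change 0.34, SE 0.10, limma adjusted p = 0.0345). *XTH13* stood at 2.17 and 1.48 against 2.88 and 2.74 FPKM (log2 change 0.44, SE 0.14, limma adjusted p = 0.0382). Neither gene overlapped between genotypes, and the wild-type libraries of *XTH13* differed more than the others.

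The calls of *XTH12* and *XTH13* were lost under several alternatives. *XTH12* was not called when any of the libraries was left out. Without wild type replicate 1 or 2 its change was 0.30 and 0.38 (limma adjusted p = 0.149 and 0.0801), and without trm4b-4 replicate 1 or 2 it was 0.32 and 0.36 (limma adjusted p = 0.123 and 0.0882). *XTH13* was not called without wild type replicate 2 (0.26, limma adjusted p = 0.207), trm4b-4 replicate 1 (0.42, limma adjusted p = 0.116) or trm4b-4 replicate 2 (0.47, limma adjusted p = 0.0809). *XTH12* and *XTH13* were 89.4% identical, the closest pair of the family, with a shared stretch of 47 bases. The log2 ratio of *XTH12* to *XTH13* overlapped between genotypes, whereas that of *XTH12* to *XTH22* went from -6.77 ± 0.0609 to -2.20 ± 0.0626 (SD, n = 2 each). *XTH25*, which was under the filter, had a log2 ratio to *XTH22* of -8.65 ± 0.334 in wild type and -5.84 ± 0.264 in trm4b-4. AT5G57565, next to *XTH22*, read 10.5 and 9.26 against 8.27 and 8.25 FPKM (log2 change -0.23, limma adjusted p = 0.0506).

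**Figure D4:**
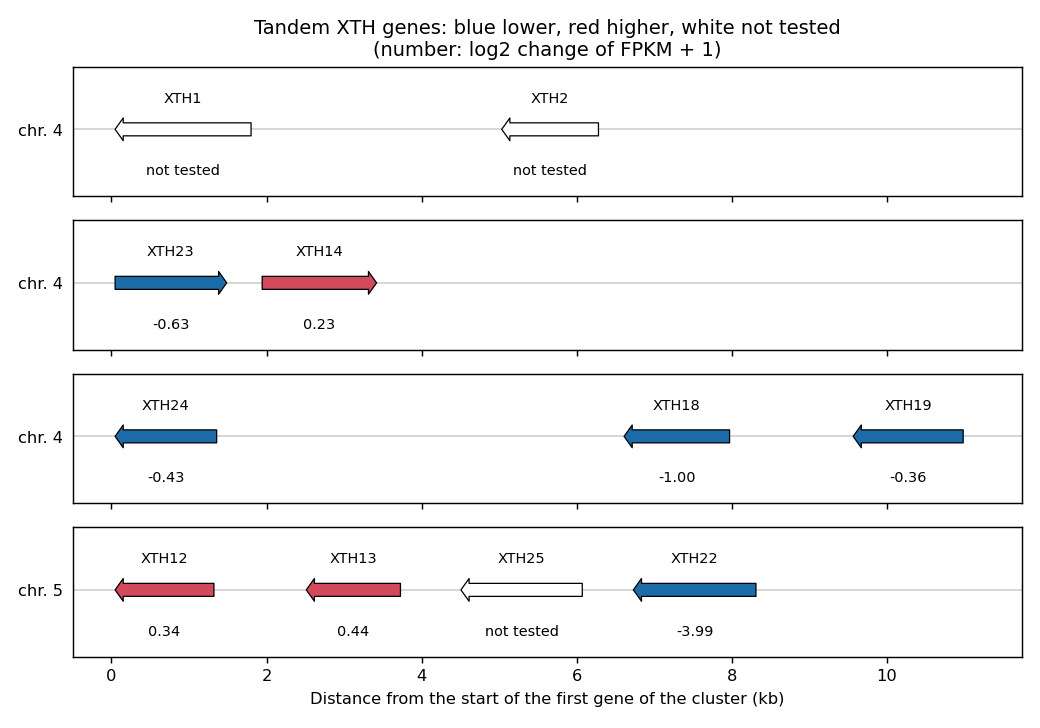
The 4 tandem clusters of XTH genes drawn to scale, with distance in kilobases from the start of the first gene of the cluster (horizontal axis) and arrows pointing along the strand. Blue genes fell, red genes rose and white genes were not tested, and the number under a gene is its log2 change of FPKM + 1. XTH23 and XTH14 have opposite colours, XTH24, XTH18 and XTH19 are all blue, and XTH22 at -3.99 follows 2 red genes at 0.34 and 0.44, whose calls were lost when trm4b-4 replicate 1 was left out.

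The fourth cluster, *XTH1* and *XTH2* on chromosome 4, gave almost no signal. Over all 4 libraries *XTH1* and *XTH3* had 0 fragments and *XTH2* had 1. A count of 0 allows up to 3 fragments in a library, which is 0.114 to 0.137 FPKM for a transcript of 1 kb. The other 5 members under the filter had low counts, and their ratios come with exact 95% intervals that cover counting error only. *XTH25* had 30 fragments in wild type and 11 in trm4b-4, a ratio of 0.409 after allowing for depth (0.185 to 0.839). Its libraries read 0.644 and 0.476 against 0.258 and 0.205 FPKM, without overlap, and with no filter it was called lower (log2 change -0.34, limma adjusted p = 0.0371), where 21.7% of genes were called. *XTH10* had 57 and 38 fragments (ratio 0.743, 0.480 to 1.14) and *XTH33*, known as a membrane-bound member, 52 and 36 (0.772, 0.490 to 1.203). *XTH26*, known from root hairs, had 23 and 26 (1.26, 0.691 to 2.31) and *XTH29* 25 and 24 (1.07, 0.585 to 1.95). For these 4 the interval includes 1, so no difference was detectable at this depth.

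XTH enzymes act on a polymer that other genes build and trim. Of a list of 19 such genes, 17 were tested, of which 2 rose, 3 fell and 12 were not called, with a median log2 change of -0.05. The 5 called genes are a share no higher than the 34.3% called over all tested genes. *CSLC4*, which makes the glucan backbone, stood at 49.9 and 50.6 FPKM in wild type and 19.8 and 20.3 FPKM in trm4b-4 (log2 change -1.29, SE 0.04, limma adjusted p = 1.74e-07). *XXT1*, a xylosyltransferase that adds the side chains, stood at 24.7 and 24.3 against 9.51 and 10.3 FPKM (log2 change -1.23, limma adjusted p = 2.28e-06). Both genes were well separated between genotypes. The related *XXT5* fell less (-0.33, limma adjusted p = 4.51e-04). The rises were *CSLC5*, a relative of *CSLC4* (0.30, limma adjusted p = 0.00458), and *XYL1*, an enzyme that trims xylose from xyloglucan (0.31, limma adjusted p = 1.22e-04). *XXT2*, the partner of *XXT1* in the same step, was at 66.2 ± 2.52 and 63.9 ± 0.819 FPKM and was not called (-0.05, limma adjusted p = 0.324).

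Markers of organs and cell types were followed beside the family, and those of root hairs and green shoots were both present, as the label of a whole plant has it. Their counts stand beside 19.2% of all tested genes that rose and 15.1% that fell. Of 9 root hair markers, 5 rose and 0 fell, and their summed level was 38.9 to 41.0 FPKM in wild type and 53.3 to 55.3 FPKM in trm4b-4. The largest changes among those called were *PRP1* (0.64) and *PRP3* (0.50), both coding for root hair wall proteins. Of 8 green shoot markers 4 rose and 4 fell, with sums of 32658 to 32999 and 34859 to 35042 FPKM. Of 6 seed markers 3 were tested and all 3 rose, with sums of 0.790 to 1.06 and 7.88 to 8.45 FPKM and *SESA1* at 0. Those 3 passed the filter through the trm4b-4 libraries alone. They could thus only be called higher, and the 19.2% of all tested genes is no fair comparison for this count. Of 5 flower markers 2 were tested and *SEP3* fell (-0.64), with sums of 14.9 to 15.5 and 9.75 to 10.3 FPKM and *AP3* at 0. The part of these cell types in the changes of *XTH14*, *XTH17*, *XTH18* and the other members was not tested.

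Gene structure and sequence gave further differences among the members. The annotated *XTH22* has 2 exons, where the other members have 3 to 5. The coding sequence is 810 bases long in *XTH24* and 1074 bases in *XTH29*, the shortest and longest of the family. The conserved active site of the family, read as D-E-x-D-x-E-x-x-G, was found in 31 of 33 translated coding sequences, with the exceptions of *XTH9* and *XTH11*. *XTH9* fell and *XTH11* was not called. Of all 18 called members, 13 were called under every one of the 13 alternatives in which they were tested, 12 of them lower and 1, *XTH31*, higher. The other 5, *XTH8*, *XTH12*, *XTH13*, *XTH14* and *XTH19*, each lost the call when at least 1 library was left out. The share of all called genes that kept their call was not computed, so these counts show nothing particular to the family.

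More members were called lower than higher under each of the 13 alternatives. The counts are set beside the share of all tested genes called in either direction, as shares per direction were computed for the main fit alone. How falls and rises over all genes compared under the alternatives was thus not looked at. With a pseudocount of 0.1 or of 5, 14 members were lower and 4 higher, beside 34.1% and 34.5% of genes. With no filter 13 were lower and 2 higher, beside 21.7%, and with a filter of 5 FPKM 14 and 2, beside 41.6%. These settings changed which members were tested. At 5 FPKM *XTH5*, *XTH11*, *XTH12*, *XTH13* and *XTH21* were not tested. With no filter *XTH2*, *XTH10*, *XTH25*, *XTH26*, *XTH29* and *XTH33* entered, and of these only *XTH25* was called, as lower. After median-of-ratios rescaling 15 were lower and 4 higher, beside 33.1%, and after quantile normalization 13 and 2, beside 33.6%. Without a mean-variance trend 12 were lower and 2 higher, beside 25.8%, and with voom on the recovered fragments 14 and 3, beside 39.6%. A term for the replicate number gave 14 and 4, beside 35.6%. Without wild type replicate 1 there were 12 lower and 3 higher, beside 25.1%, and without wild type replicate 2 there were 14 and 1, beside 24.6%. Without trm4b-4 replicate 1 there were 12 and 1, beside 28.2%, and without trm4b-4 replicate 2 there were 13 and 2, beside 27.9%.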

How the data were processed

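RNA from 4 whole-seedling samples was sequenced with a directional kit, per the labels' protocols. The deposited values are FPKM, 1 file per library, and the authors' headers name only the library. The values are whole fragments divided by a length and a library total, which gave the unit but does not separate FPKM from RPKM. The tools Cuffdiff, HTSeq 0.6.1, Cufflinks 2.1.1 and TopHat2 2.0.12 and the build TAIR10 are listed, per the submitters' processing notes. Not given in the sources used here are their order and roles, the strand setting and the counting of reads that match several genes.

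From these files, library totals of 26390263 and 23782269 fragments for wild type replicates 1 and 2, and 21931590 and 23068982 for trm4b-4 replicates 1 and 2, were recovered. The chosen totals gathered 2381 to 2469 estimates within 1 fragment, and the densest other windows 1136 to 2128. All 24892 features above 0 (100% of them) then gave whole fragments. Summed over features, these came to 102.11% to 102.32% of the library totals, so totals and fragments do not match exactly. Lengths of 5781 features were annotated ones and the rest were taken from the steps of the values, so fragment numbers may be off by a whole factor. Intervals and floors cover counting error only. On the recovered fragments, voom called 7535 genes.

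Genes that reached 1 FPKM in 2 or more of the 4 libraries were tested on log2(FPKM + 1), a pseudocount of 1, with limma 3.58.1 in R 4.3.3, using a mean-variance trend, no covariate and two-sided Benjamini-Hochberg adjusted p over all 19027 genes, with a threshold of 0.05. The procedure was first run on simulated data with known changes. That run checked the code and does not show the error rate in these libraries. Single sums were compared by an exact permutation test. Alternatives changed the pseudocount, filter, scaling, trend, replicate block or count model, or left out each library. The members, lists and tests were chosen with earlier results of these data known. Named genes were all 33 members, *TRM4B* and the list genes at 0. Called list genes were named from the up to 4 per direction with the smallest adjusted p in their list. Not all of these were named, and none of the called green shoot and seed genes. *TCH2*, *CAM2*, *CBF1*, *XXT2* and the neighbours of the clusters were named besides. Names, positions, coding sequences and upstream windows came from the RefSeq annotation of TAIR10.1. By locus, 32835 features had a match there. TAIR10.1 is not the build named by the authors. Its positions set the tandem clusters and upstream windows, and its exon and coding lengths entered the recovery of library totals and fragments. Sequences were aligned with Biopython 1.88 in Python 3.11.15.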

Additional observations from a re-analysis of the deposited data

How the results depend on the processing

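Of the 18 called members, 13 kept their call and direction under each of the 13 alternatives in which they were tested, and the number of members lower stayed between 12 and 15. The share of all called genes that kept their call was not computed. The number higher, 4, was 2 with no filter, with a filter of 5 FPKM, with quantile normalization and with no mean-variance trend, and 1 to 3 when a library was left out. The median log2 change of the members, -0.36, was -0.24 with a pseudocount of 5, -0.19 with no filter, -0.59 with a filter of 5 FPKM and -0.42 with voom, and -0.23 to -0.43 when a library was left out. A filter changes which low genes enter, and at 5 FPKM *XTH5*, *XTH11*, *XTH12*, *XTH13* and *XTH21* were not tested. For the other settings the cause was not tested. The summed ratio, 0.690, was 0.674 after median-of-ratios rescaling, 0.786 without *XTH22*, and 0.682 to 0.697 when a library was left out. Small changes turned sign in *XTH5*, -0.11 to 0.055 when a library was left out, and in *XTH20*, -0.015 after median-of-ratios rescaling, -0.017 after quantile normalization, and -0.023 to 0.048 when a library was left out. Median-of-ratios rescaling moved the median change of all genes by -0.029. The libraries share only replicate numbers, and the correlation of their replicate differences across genes was -0.04. A fit with the replicate block called 6769 genes instead of 6530, with 14 members lower and 4 higher, the median at -0.36, and the lists at 3 lower and 2 higher for xyloglucan genes and 15 lower for touch and stress genes. *XTH1*, *XTH2* and *XTH3* had at most 1 fragment over all libraries, so depth allows no comparison of them.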
